A study of Mus musculus with 18 samples.

Results

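Hemoglobin and erythroid genes were followed in 18 libraries of sorted and cultured mouse T cells. The members are 7 of the 55487 genes in the count table, chosen by name: 2 beta globins (Hbb-bs, Hbb-bt), 2 alpha globins (Hba-a1, Hba-a2) and the erythroid genes Alas2, Slc4a1 and Car2. All 7 had counts in every library and all 7 passed the filter on low counts that left 12693 genes for testing, Slc4a1 only through 3 Treg libraries. Summed over the libraries they ran from 77 counts (Slc4a1) to 12965 counts (Hbb-bs).

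Red cells and their precursors fill with hemoglobin, a tetramer of alpha and beta globin chains that each hold a heme group and carry oxygen. Alas2 makes the first committed product of heme synthesis in erythroid cells, Slc4a1 (band 3) exchanges chloride for bicarbonate across the red cell membrane and anchors its skeleton, and Car2 (carbonic anhydrase II) interconverts carbon dioxide and bicarbonate. Globin mRNA is among the most abundant messages of reticulocytes, is made by erythroblasts in the red pulp of the mouse spleen and is a known trace component of RNA from blood-rich tissue.

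The T cells came from spleen, were sorted by flow cytometry and were then cultured for 72 h with anti-CD3 bound to the plate and anti-CD28, both at 2 µg/ml, in the presence of 10 ng/ml IL-2. All mice carried Foxp3 YFP/cre, in which YFP and Cre are placed at the gene of the regulatory T cell factor Foxp3. The mice labelled KO (Foxp3 YFP/cre Ebi3 -/-) also lacked Ebi3, one of the chains of the heterodimeric cytokines IL-27 and IL-35, and those with Foxp3 YFP/cre alone are called WT here. Each genotype gave 3 libraries labelled CD8, 3 labelled CD4 and 3 labelled Treg, made from 500 ng of total RNA with 3' end tags and unique molecular identifiers (UMIs), so that each transcript is counted near its end and gene length does not enter the count. The labels call the animals healthy, give no age, and do not say whether a replicate is its own animal, culture or pool, so every p-value here reflects spread among libraries, which may be technical.

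Library totals ran from 841892 to 2255950 counts, with all 6 Treg libraries under the lowest CD4 or CD8 library. In these tags Ebi3 stood at 24.2 to 34 CPM (counts scaled to the library size after TMM normalization) in the CD8 libraries labelled KO against 28.0 to 29.7 in those labelled WT. It stood at 24.6 to 34.5 against 25.8 to 40.1 CPM in Treg, and at 20.6 to 26.1 against 38.7 to 60.5 CPM in CD4. The labels do not say which part of Ebi3 was removed, so these 3' tags may lie outside it and cannot check the genotype. Cd8a was at most 3 counts in a CD4 library and Cd4 at most 1 count in a CD8 library, as labelled, while the Treg libraries held both, with 28 to 71 counts of Cd4 and 26 to 38 of Cd8a, and Foxp3 was at 0 or 1 count in all 18 libraries. A list of 22 B cell genes made up 0.748 to 1.76% of all counts and a list of 11 T cell receptor genes 0.112 to 0.257%, the B cell list being the larger in every library. The counts of Treg WT replicates 1 and 2 lay within sampling noise of each other (chi-square 0.923 per gene), and so did those of Treg KO replicates 1 and 3 (0.914). Each such pair differed by less than counting error and was counted as 1 sample in means and SDs. The fits kept all 18 libraries, so their p-values for Treg treat these libraries as separate, and a fit with each pair summed is given where it ends a call. The same was so for 4 pairs of a Treg library labelled WT and one labelled KO (0.869 to 0.994), while replicates of the CD4 and CD8 groups stood at 1.5 to 5.30.

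The 4 hemoglobin genes lie in the 2 adult globin clusters. Hbb-bs (chr7:103826534-103828096, GRCm38) and Hbb-bt (chr7:103812524-103813996) lie on the minus strand of chromosome 7, and Hba-a1 (chr11:32283511-32284465) and Hba-a2 (chr11:32296489-32297298) on the plus strand of chromosome 11. Alas2 lies at chrX:150547375-150570638, Slc4a1 at chr11:102348824-102366203 and Car2 at chr3:14886273-14900770. Promoter windows from RefSeq (GRCm38.p6) were matched for 5 of the 7 members, not for Slc4a1 and Car2. The windows of Hbb-bs, Hbb-bt, Hba-a1 and Alas2 are shown 5′ to 3′, from 250 bases before the start to the base before it. Capitals mark AGATAA (a form of the GATA factor motif), CACCC (bound by erythroid KLF factors) and CCAAT, each on either strand. Other forms of the GATA factor motif were not searched for or marked.
Hbb-bs, chr7:103827929-103828178 (minus strand): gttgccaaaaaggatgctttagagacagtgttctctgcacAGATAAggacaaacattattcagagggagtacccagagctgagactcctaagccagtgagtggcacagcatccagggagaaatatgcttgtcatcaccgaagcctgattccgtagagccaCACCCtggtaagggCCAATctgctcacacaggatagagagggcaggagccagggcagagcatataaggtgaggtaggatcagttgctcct
Hbb-bt, chr7:103813924-103814173 (minus strand): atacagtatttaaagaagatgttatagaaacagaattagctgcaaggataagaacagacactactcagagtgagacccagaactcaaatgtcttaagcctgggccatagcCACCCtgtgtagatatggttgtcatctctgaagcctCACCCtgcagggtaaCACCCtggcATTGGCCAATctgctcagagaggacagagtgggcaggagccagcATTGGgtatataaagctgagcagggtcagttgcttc
Hba-a1, chr11:32283422-32283671 (plus strand): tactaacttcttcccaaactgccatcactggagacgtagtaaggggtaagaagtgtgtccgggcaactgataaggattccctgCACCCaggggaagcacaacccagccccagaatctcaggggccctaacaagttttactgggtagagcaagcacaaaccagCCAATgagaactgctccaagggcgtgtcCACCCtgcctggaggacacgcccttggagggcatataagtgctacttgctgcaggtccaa
Alas2, chrX:150547167-150547416 (plus strand): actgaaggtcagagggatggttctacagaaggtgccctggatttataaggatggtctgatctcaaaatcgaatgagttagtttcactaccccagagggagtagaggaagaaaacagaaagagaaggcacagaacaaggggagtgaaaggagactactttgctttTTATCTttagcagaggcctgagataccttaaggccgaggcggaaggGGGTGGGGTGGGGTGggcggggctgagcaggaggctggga

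AGATAA occurred once in Hbb-bs and once in Alas2, and 11.2% of the 32851 promoter windows of 300 bases in the table held it. CACCC occurred in all 5 windows, 1 to 3 times, and in 57.5% of all windows. In Alas2 its 3 copies lie on the other strand, end to end. CCAAT occurred in the 4 globin windows and not in that of Alas2, and in 37.4% of all windows. In Hbb-bt 2 of its 3 copies, one on each strand, lie side by side. The windows of Hba-a1 and Hba-a2 were identical over all 297 aligned bases, those of Hbb-bs and Hbb-bt over 219 of 293 (74.7%). A match describes these letters and is no evidence that a factor binds there.

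The same comparison of the spliced transcripts sets how well a tag can tell the copies apart. Hba-a1 and Hba-a2 shared 537 of 538 aligned bases, and over the last 100 bases, where a 3' tag falls, the 84 aligned bases had 0 mismatches, so the split between these 2 genes is uncertain. Hbb-bs and Hbb-bt shared 580 of 626 aligned bases (92.7%) but 68 of 97 (70.1%) over the last 100. How reads with several alignments were counted is not given in the sources used here.

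Hemoglobin made up close to 1 count in 1000 in these libraries. CD8 WT replicates 1 to 3 held 0.0635%, 0.0720% and 0.107% of counts in the 4 hemoglobin genes, and CD8 KO replicates 0.109%, 0.0995% and 0.147%. CD4 WT replicates held 0.151%, 0.0880% and 0.106%, and CD4 KO replicates 0.0756%, 0.101% and 0.0889%. The lowest and highest libraries, CD8 WT replicate 1 (exact 95% interval 0.0601 to 0.0672%) and CD4 WT replicate 1 (0.145 to 0.158%), thus lay in WT groups, and their intervals, which cover counting error only, were far apart.

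The Treg libraries lay close together, but with several of them within sampling noise of one another they may stand for fewer distinct samples than their number. Treg WT replicates held 0.111%, 0.109% and 0.114% of counts in hemoglobin, and Treg KO replicates 0.113%, 0.121% and 0.113%. Their hemoglobin level ran from 1181 to 1257 CPM, a range of 1.06-fold, against 2.40-fold (625 to 1498 CPM) over the CD4 and CD8 libraries.

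**Figure D1:**
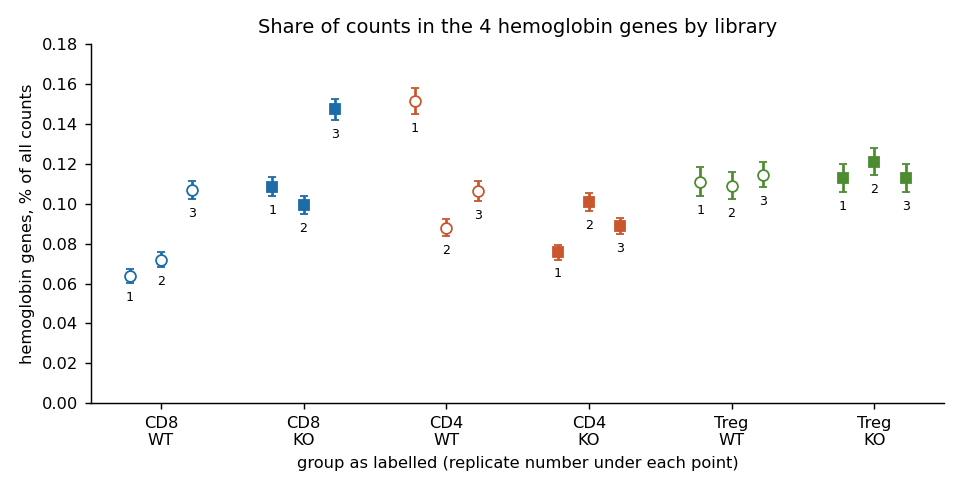
Share of all counts (%, y axis) in the 4 hemoglobin genes for each library, by labelled group (x axis), with exact 95% binomial intervals of counting error. The 6 Treg libraries sit between 0.109 and 0.121%, inside the range of the CD4 and CD8 libraries, 0.0635 to 0.151%.

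Group means of summed hemoglobin were 790 ± 221 CPM (SD, n = 3) in CD8 WT and 1173 ± 258 (n = 3) in CD8 KO. They were 1131 ± 334 (n = 3) in CD4 WT and 870 ± 121 (n = 3) in CD4 KO, and 1193 ± 3.50 (n = 2) in Treg WT and 1230 ± 37.6 (n = 2) in Treg KO. Over all libraries of each group the KO to WT ratio of means was 1.48 in CD8, 0.769 in CD4 and 1.02 in Treg. For this ratio the near-identical Treg libraries were counted separately. The KO and WT libraries overlapped in all 3 cell labels. The sum is a score over members and was given no test. In such bulk libraries fewer erythroid cells and less globin RNA per cell cannot be told apart.

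Hbb-bs, the main adult beta globin of these mice, was the most abundant member and ranked 263rd by summed count among 30423 genes with any count. It gave 44.3% of the hemoglobin counts. Its level in CD8 WT replicates 1 to 3 was 275, 324 and 484 CPM, and in CD8 KO replicates 475, 430 and 594 CPM. In CD4 WT it was 665, 365 and 456 CPM, and in CD4 KO 330, 430 and 384 CPM. Treg WT libraries stood at 556, 573 and 569 CPM and Treg KO libraries at 562, 546 and 559 CPM. CD4 WT replicate 1 was the highest library and CD8 WT replicate 1 the lowest, and within the Treg label the genotypes interleaved.

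Hbb-bt, the second adult beta globin, gave 16.4% of hemoglobin counts and ranged from 103 to 248 CPM. In CD8 it was 103, 121 and 172 CPM in WT and 167, 147 and 231 CPM in KO. In CD4 it was 248, 141 and 167 CPM in WT and 117, 166 and 129 CPM in KO. In Treg it was 194, 218 and 207 CPM in WT and 224, 241 and 207 CPM in KO. The order of the libraries was close to that of Hbb-bs, and each pair of genotypes overlapped.

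The alpha globins followed the same libraries. Hba-a1 (23.2% of hemoglobin counts) was at 137, 160 and 230 CPM in CD8 WT and at 259, 240 and 365 CPM in CD8 KO. In CD4 it was at 347, 186 and 249 CPM in WT and at 192, 228 and 212 CPM in KO, and in Treg at 281, 238 and 236 CPM in WT and 272, 281 and 254 CPM in KO. Hba-a2 (16.1%) was at 111, 99.8 and 154 CPM in CD8 WT and 169, 165 and 276 CPM in CD8 KO. It ran from 155 to 238 CPM in CD4 WT, from 107 to 164 in CD4 KO and from 152 to 190 in the 6 Treg libraries. For both alpha globins every CD8 library labelled KO was above every one labelled WT, while in CD4 and Treg the genotypes overlapped.

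**Figure D2:**
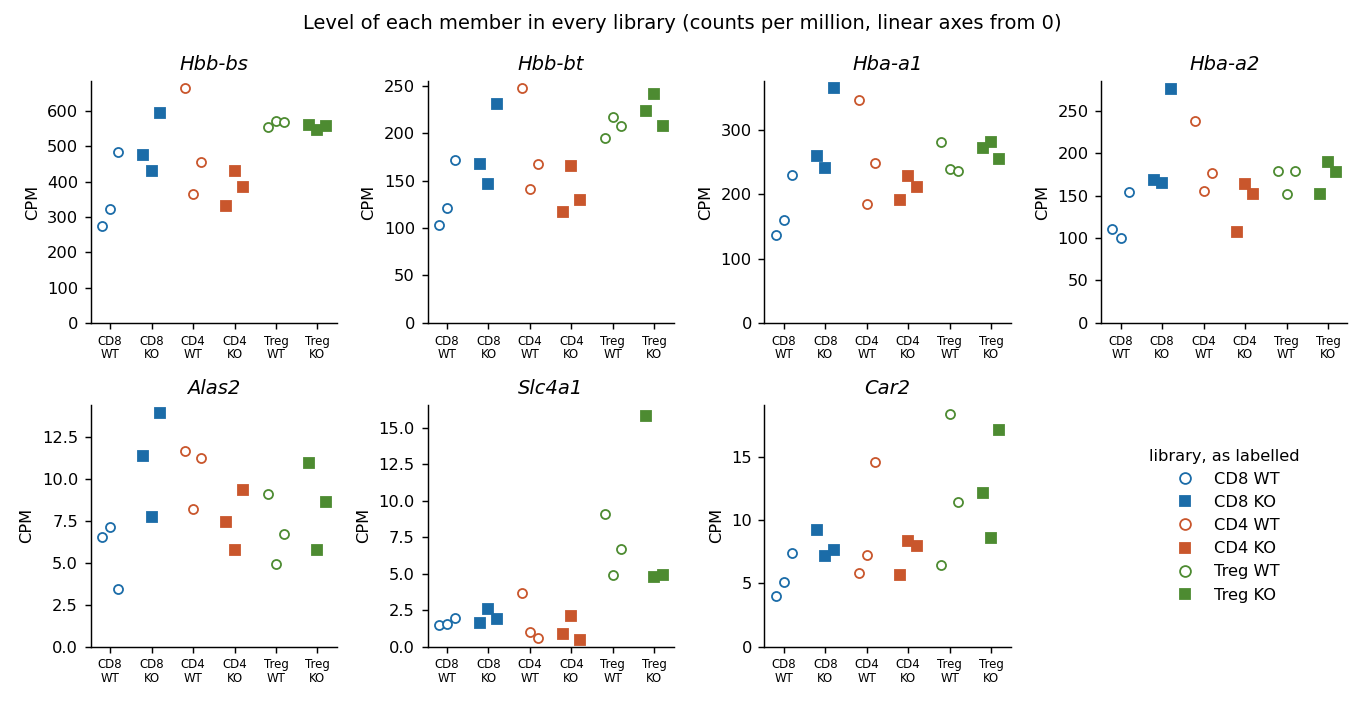
Level of each of the 7 members in every library (CPM, linear axes from 0), by labelled group, open circles WT and filled squares KO. The 4 globins repeat 1 pattern over the libraries and Slc4a1 is highest in the 6 Treg libraries. Alas2 and Car2 share the direction of the globins between KO and WT means in CD8 and CD4, but not their order in every group.

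Ratios between the globins varied less than their levels. Over the 18 libraries Hbb-bt stood at 0.336 to 0.442 counts per count of Hbb-bs, a range of 1.31-fold. Hba-a2 stood at 0.558 to 0.836 per count of Hba-a1, with the reservation above on telling them apart. Alpha globin counts were 0.495 to 0.777 of beta globin counts, below 1 in every library. The alpha globins match each other more closely at the 3' end than the beta globins do. As the counting of reads with several alignments is not given, this ratio of counts need not be that of the RNA.

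The ratio of alpha to beta globin differed by label. It was 0.613, 0.495 and 0.534 in Treg WT and 0.540, 0.597 and 0.564 in Treg KO, all below the 6 CD4 libraries (0.641 to 0.709). The CD8 libraries overlapped both, at 0.656, 0.583 and 0.586 in WT and 0.666, 0.702 and 0.777 in KO, with every CD8 KO library above every CD8 WT library. The ratios are a description over members and were given no test.

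**Figure D3:**
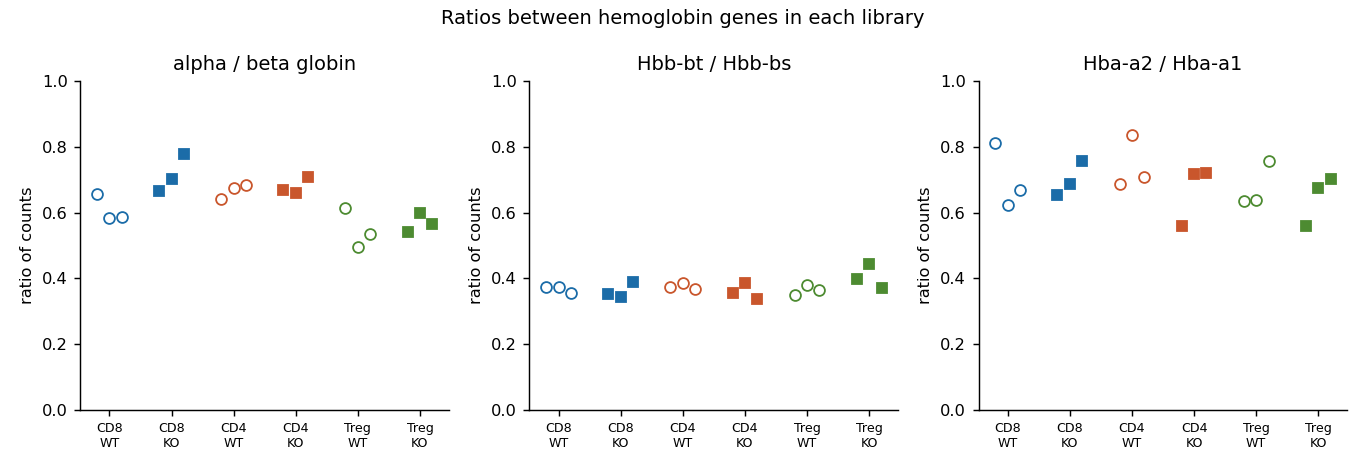
Ratios of counts (y axis, from 0 to 1) between alpha and beta globins, between Hbb-bt and Hbb-bs and between Hba-a2 and Hba-a1 in each library, by labelled group. The ratio of alpha to beta is 0.495 to 0.613 in the 6 Treg libraries and 0.641 to 0.709 in the 6 CD4 libraries.

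Alas2, the erythroid enzyme of heme synthesis, was far below the globins, with 240 counts in all and 4 to 29 counts per library. CD8 WT libraries held 6.52, 7.13 and 3.46 CPM and CD8 KO libraries 11.4, 7.73 and 13.9 CPM. CD4 WT libraries held 11.7, 8.22 and 11.2 CPM, CD4 KO libraries 7.43, 5.75 and 9.36 CPM, and the 6 Treg libraries 4.92 to 10.9 CPM. Every CD8 KO library was above every CD8 WT library, as with the alpha globins. Within CD8 KO, CD4 WT and Treg WT, Alas2 ranked the replicates as hemoglobin did. In CD4 KO and in Treg KO, replicate 2 was the highest in hemoglobin and the lowest in Alas2. CD8 WT replicate 3, the highest of its group in hemoglobin, was the lowest of all 18 in Alas2, at 7 counts. Alas2 ran from 3.33 to 10.7 per 1000 hemoglobin counts.

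Slc4a1, the band 3 anion exchanger, was the rarest member, with 77 counts in all. CD8 libraries held 1.51, 1.53 and 1.98 CPM in WT and 1.63, 2.58 and 1.92 CPM in KO. CD4 libraries held 3.64, 0.966 and 0.562 CPM in WT and 0.875, 2.09 and 0.468 CPM in KO, that is 1 to 5 counts each. Treg libraries held 9.07, 4.92 and 6.69 CPM in WT and 15.8, 4.79 and 4.91 CPM in KO (4 to 13 counts). A floor of 3 counts corresponds to 1.31 to 2.19 CPM in the CD4 and CD8 libraries and to 2.87 to 3.89 CPM in the Treg libraries, so most CD4 and CD8 values were near it. All 6 Treg libraries were above all 12 others, and per 1000 hemoglobin counts Slc4a1 stood at 3.81 to 13.1 in Treg against at most 2.63 elsewhere. The share of all genes separated in this way was not counted, and several Treg libraries lay within sampling noise of one another. Such separation was not particular to Slc4a1: 879 genes had counts in all 6 Treg libraries and in none of the other 12. Slc4a1 passed the filter on low counts only through 3 Treg libraries. Its separation, and the ratio to hemoglobin that rests on the same counts, are thus a description.

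Car2, carbonic anhydrase II, had 240 counts in all. It stood at 4.02, 5.09 and 7.42 CPM in CD8 WT and at 9.21, 7.21 and 7.66 CPM in CD8 KO. In CD4 it was at 5.83, 7.25 and 14.6 CPM in WT and at 5.68, 8.36 and 7.95 CPM in KO. Treg libraries held 6.48, 18.4 and 11.5 CPM in WT and 12.2, 8.62 and 17.2 CPM in KO. Its spread within groups was wide: the 2 Treg WT libraries that were otherwise within sampling noise held 5 and 15 counts.

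Libraries labelled KO and WT were compared within each cell label, in 1 edgeR quasi-likelihood fit over all genes and libraries with Benjamini-Hochberg adjustment (threshold 0.05, fold changes as log2 ± SE). In CD8 all 7 members had higher mean levels in the libraries labelled KO and 0 of 7 passed, where 0.165% of all genes tested passed. Alas2 differed by 0.95 ± 0.31 (edgeR adjusted p = 0.135), Hba-a2 by 0.74 ± 0.23 (adjusted p = 0.141) and Hba-a1 by 0.71 ± 0.22 (adjusted p = 0.143). Hbb-bs differed by 0.47 ± 0.22 (edgeR adjusted p = 0.300) and Hbb-bt by 0.46 ± 0.22 (adjusted p = 0.321). Car2 (0.53 ± 0.37) and Slc4a1 (0.28 ± 0.64) had the widest errors. Before adjustment 4 of the 7 had p under 0.05 (Alas2, Hba-a1, Hba-a2 and Hbb-bs), as did 16.3% of all genes.

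In 3 of the 7 members (Hba-a1, Hba-a2 and Alas2) every CD8 library labelled KO lay above every one labelled WT, as in 9.17% of all genes tested, and in 0 of 7 every KO library lay below (8.19% of all genes). The median of the 7 log2 differences was 0.53, against 0 over all 12693 genes. The CD8 result leaned on 1 library: without CD8 WT replicate 3, the WT library richest in hemoglobin, 3 of 7 members passed (Hba-a1 0.96, Hba-a2 0.95 and Hbb-bs 0.74), along with 646 genes in place of 21. DESeq2 called Hba-a1 (0.68, adjusted p = 0.0315) and Hba-a2 (0.71, adjusted p = 0.0345), with 72 genes in all.

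In CD4 the sign was the opposite for all 7 members and 0 of 7 passed, where 0% of all genes passed. Libraries labelled KO differed from WT by -0.37 ± 0.22 in Hbb-bs (edgeR adjusted p = 0.719), -0.42 ± 0.22 in Hbb-bt (adjusted p = 0.716), -0.30 ± 0.22 in Hba-a1 (adjusted p = 0.788) and -0.42 ± 0.23 in Hba-a2 (adjusted p = 0.716). Alas2 (-0.43 ± 0.30), Slc4a1 (-0.45 ± 0.76) and Car2 (-0.36 ± 0.34) were no firmer. No member had p under 0.05 before adjustment, against 7.32% of all genes, and the genotypes overlapped in all 7 members, where 4.89% of all genes had every KO library above and 4.71% below. Leaving out CD4 WT replicate 1, the library highest in hemoglobin, brought the log2 ratio of summed hemoglobin from -0.38 to -0.12.

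In Treg, where 4 WT and KO pairs lay within sampling noise, a small difference says nothing about genotype. The members differed by -0.03 (Hbb-bs) to 0.26 (Slc4a1) between the genotypes, with SEs of 0.22 to 0.50. There 0 of 7 passed, as did 0% of all genes, and before adjustment 0 of 7 had p under 0.05, against 2.16% of all genes. All 7 overlapped, where 4.46% of all genes had every KO library above and 4.94% below. Averaged over the 3 cell labels 0 of 7 passed, with differences of 0.02 (Hbb-bs) to 0.26 (Alas2), where 0% of all genes passed and 3.51% had p under 0.05 before adjustment.

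The difference between the CD8 and the CD4 effect was tested itself. It was positive for all 7 members, from 0.73 (Slc4a1) to 1.38 (Alas2), and 0 of 7 passed, where 0% of all genes passed and 17.9% had p under 0.05 before adjustment. The smallest adjusted p was 0.103, for Hba-a2 (1.17 ± 0.32, edgeR). DESeq2 called the 4 globins here (0.80 to 1.12, adjusted p 0.0251 to 0.0493), and without CD8 WT replicate 3 the edgeR fit called them too (1.11 to 1.37). Without CD4 WT replicate 2 it called Hba-a1 (1.21), Hba-a2 (1.29) and Alas2 (1.53). In the order given, these runs called 130, 859 and 613 genes in all, so the calls were not particular to the members.

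**Figure D4:**
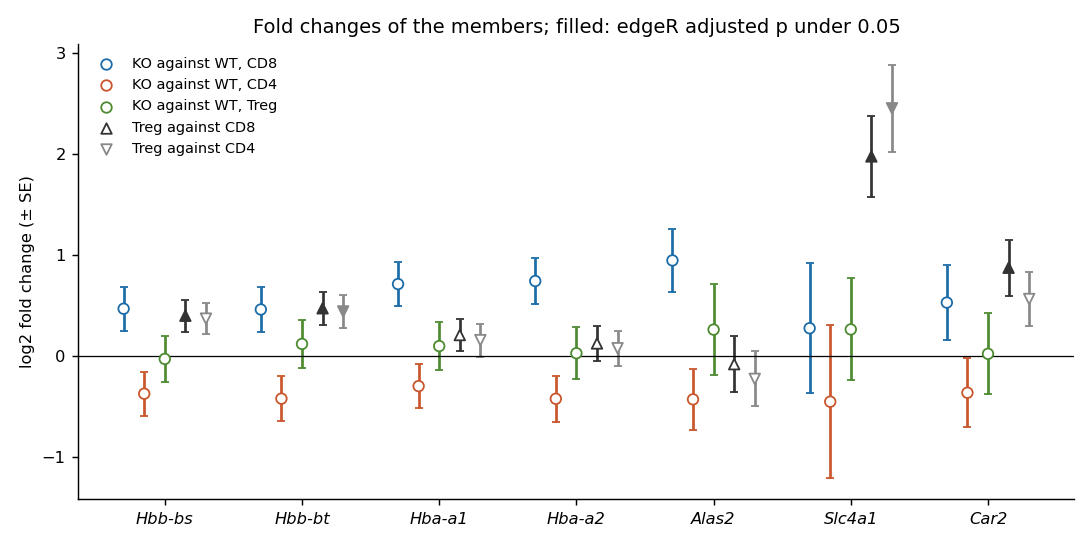
Log2 fold changes of the 7 members (y axis, ± SE) for KO against WT in each cell label and for Treg against CD8 and CD4, filled where the edgeR adjusted p is under 0.05. In CD8 all 7 points lie above 0 and in CD4 all 7 below, none of them filled. Slc4a1, which passed the filter on low counts only through Treg libraries, stands out in Treg against CD8 and CD4.

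The levels were then compared between cell labels, averaged over genotypes. Between CD8 and CD4 the globins differed by -0.05 to -0.03 and 0 of 7 members passed (5.92% of all genes). Against CD4, the Treg libraries were higher in 2 of 7 members and lower in 0, where 33.3% of all genes were higher, 25.2% lower and 58.4% passed in either direction: Slc4a1 (2.45 ± 0.43, edgeR adjusted p = 1.13e-05) and Hbb-bt (0.44 ± 0.16, adjusted p = 0.0306). Slc4a1 passed the filter on low counts only through Treg libraries, so its value here is a description. Hbb-bs (0.37 ± 0.16, edgeR adjusted p = 0.0550) and Car2 (0.57 ± 0.27, adjusted p = 0.0676) did not pass.

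Against CD8, 4 of 7 were higher in Treg and 0 lower, where 33.9% of all genes were higher, 26.2% lower and 60.1% passed: Slc4a1 (1.98 ± 0.40, edgeR adjusted p = 7.99e-05), Car2 (0.88 ± 0.28, adjusted p = 0.00686), Hbb-bt (0.47 ± 0.16, adjusted p = 0.0211) and Hbb-bs (0.40 ± 0.16, adjusted p = 0.0394). The value of Slc4a1 is again a description. Hba-a1, Hba-a2 and Alas2 passed in neither comparison, with differences of -0.22 to 0.21. The beta globin calls were lost with library totals alone in place of TMM factors, for Hbb-bt at 0.34 against CD4 (edgeR adjusted p = 0.0856) and 0.37 against CD8 (adjusted p = 0.0593) and for Hbb-bs at 0.30 against CD8 (adjusted p = 0.111). Leaving out 1 library left 1 to 3 members called against CD4 and 2 to 4 against CD8. Hbb-bt against CD4 lost its call without CD4 WT replicate 2 or 3, CD4 KO replicate 1 or 3, Treg WT replicate 2 or 3, or Treg KO replicate 1 or 2. Hbb-bs against CD8 lost it without any of the 6 Treg libraries or replicate 1 or 2 of either CD8 group. Hbb-bt against CD8 lost it without CD8 WT replicate 1 or 2, CD8 KO replicate 2 or Treg KO replicate 2, and Car2 against CD8 lost it without Treg WT replicate 2 (0.68, edgeR adjusted p = 0.0546). With each near-identical Treg pair summed, Hbb-bt against CD4 (0.46, edgeR adjusted p = 0.0559) and Hbb-bs against CD8 (0.40, adjusted p = 0.0803) lost theirs.

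Slc4a1 entered these tests only through the Treg libraries in which it was high, so its place among the members called is no support for a difference. With no filter, over 30423 genes, it stood at 2.29 ± 0.43 against CD4 (edgeR adjusted p = 6.46e-07) and 1.81 ± 0.40 against CD8 (adjusted p = 2.98e-05). It passed in every alternative run, but all except the run with no filter used a filter on low counts and so add no support. The median of all genes was itself 0.08 against CD4 and 0.07 against CD8.

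The higher values of Slc4a1 in Treg came with a wider set of transcripts. Although shallower, the Treg libraries held counts in 20034 to 20596 genes each, the CD4 and CD8 libraries in 16193 to 17338. A set of 879 genes had counts in all 6 Treg libraries and in none of the other 12, while 13 genes showed the reverse. Their part in the Slc4a1 result was not tested.

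Other genes of the red cell program were read from lists by role. Of 11 matched globin and globin-like genes beyond the members, none was abundant enough to be tested: the embryonic beta-like Hbb-y, Hbb-bh0, Hbb-bh2 and Hbb-bh3, the embryonic alpha-like Hba-x, and Hbq1b were at 0 in all 18 libraries, and Hbb-bh1 had 1 count. At the summed depth of 28653307 counts, a count of 0 allows up to 3 counts over all libraries. Cytoglobin (Cygb), which is made outside the red cell lineage, had 16 counts, and its mean was 2.85 CPM in Treg and 0 in CD8.

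All 12 genes of heme synthesis and mitochondrial iron and porphyrin transport were tested, and 0 passed between genotypes in any cell label. Against CD4, 1 was higher and 3 were lower in Treg, a share called below that of all genes (58.4%). Fech, ferrochelatase, which inserts the iron, rose by 0.84 ± 0.11 (edgeR adjusted p = 1.40e-07). Among those lower were Alad, an early enzyme of the pathway (-1.15 ± 0.18), and the porphyrin carrier Tmem14c (-0.47 ± 0.07). Against CD8, 1 was higher and 4 were lower (60.1% of all genes passed): Fech again passed as higher (1.05 ± 0.12), and Alad, Tmem14c and the iron importer Slc25a37 (-0.26 ± 0.10) were among those lower. Alas1, the form of the first enzyme used in all tissues, had 866 counts to the 240 of Alas2.

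Of 17 erythroid membrane and surface genes 5 were abundant enough to test, and 0 passed between genotypes. Protein 4.2 (Epb42), a membrane protein that binds band 3, had 4 counts in all. Ermap, an erythroid surface protein, had 36 counts, all in Treg libraries (mean 6.88 CPM), and none in the other 12. It was among 879 genes with counts in all 6 Treg libraries and in no other. Of the 14 genes of this list with a mean under 5 CPM, 11 had a higher mean in Treg. Tmod1, which caps actin in the membrane skeleton, reached the filter's level only in 3 CD8 libraries, so its difference from CD4 (1.60 ± 0.44) is a description. Epb41, protein 4.1, was the most abundant, at 83.0 CPM in Treg and 93.1 in CD4.

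The transcription factors that define the erythroid lineage were rare. Tal1 had 20 counts and Sox6 38, with at most 5 in a library. Their means were 2.49 and 4.71 CPM in Treg and 0.254 and 0.799 in CD4. Of the 7 regulators with a mean under 5 CPM, 3 had a higher mean in Treg. Over all 18 libraries Klf1 had 6 counts, Gata1 19, Nfe2 2, Gfi1b 4 and the erythropoietin receptor gene Epor 10, with at most 3 counts in any library for each. The 7 of 14 regulators that could be tested (Lmo2, Zfpm1, Ldb1, Bcl11a, Zbtb7a, Myb and Cited2) are also used in lymphocytes. Against CD4, 4 of them were higher and 1 lower in Treg, where 33.3% of all genes were higher and 25.2% lower, among them Lmo2 (0.77 ± 0.19) and Ldb1 (-1.26 ± 0.28), and between genotypes 0 passed.

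Among 18 tested genes of late erythroid cells 0 passed between genotypes. Hemgn (hemogen), a nuclear protein of blood progenitors, was higher in CD8 than in CD4 (2.40 ± 0.27, edgeR adjusted p = 7.05e-08), at means of 13.3 and 2.62 CPM. The CD4 mean lay under the filter's level of 5.415 CPM, so this difference is a description. Prdx2, an abundant antioxidant enzyme of red cells, was lower in CD8 than in CD4 (-0.37 ± 0.08). In Treg against CD4, 5 were higher and 4 lower, shares close to or below those of all genes (33.3% and 25.2%). Bnip3l, which drives loss of mitochondria in reticulocytes, was higher (0.81 ± 0.13), and Bcl2l1, a survival factor of erythroblasts and of activated T cells, was lower (-1.77 ± 0.18).

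Of the other carbonic anhydrases 5 of 15 were tested. Car6, Car8 and Car10 reached the filter's level in Treg libraries alone, so their higher values there are a description. Car6 had a mean of 12.4 CPM in Treg and 0.296 in CD4, and Car10 had 39 counts, all in Treg libraries (mean 7.51 CPM). Car12, a membrane enzyme, reached the filter's level in 6 CD8 and 6 CD4 libraries but in only 1 Treg library. Its lower value in Treg than in CD4 (-2.39 ± 0.33) is thus also a description. The red cell form Car1 had 19 counts in all and could not be tested. Of these 15 genes 14 had a mean under 5 CPM, and 12 of those 14 had a higher mean in Treg.

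Among 10 genes of bicarbonate and chloride transport, 2 of 6 tested were higher in Treg than in CD4 and 1 was lower, the shares higher and lower being near or below those of all genes (33.3% and 25.2%). Slc4a2, the close relative of Slc4a1 in other tissues, was higher (0.51 ± 0.18) and Slc4a7 lower (-0.50 ± 0.09). The sodium bicarbonate carrier Slc4a4, at means of 7.70 CPM in Treg and 0.30 in CD4, reached the filter's level in Treg libraries alone. Of the 5 genes of this list with a mean under 5 CPM, 4 had a higher mean in Treg.

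Markers of cells that could travel with red cell RNA were read in the same way. The 13 platelet genes summed to 13.9 to 32.9 CPM, with Itgb3, also used by T cells, at 514 counts in all, Pf4 at 28, and Gp1ba and Tubb1 at 0. The 21 myeloid genes summed to 100 to 148 CPM in the CD4 and CD8 libraries and to 251 to 318 CPM in Treg. Hmox1, heme oxygenase 1, which breaks heme down, alone stood at 102 to 146 CPM in Treg against 9.10 to 24.4 elsewhere (3.38 ± 0.14 against CD4, edgeR adjusted p = 5.79e-19). The macrophage genes Adgre1 and Csf1r had 37 and 62 counts in all. Of the 7 myeloid genes tested, 6 were higher in the CD8 libraries labelled KO (median 0.62) and 5 lower in the CD4 libraries labelled KO (median -0.33), with 0 passing. The part of these cells in the erythroid results was not tested.

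The closest company of hemoglobin was the B cell list. Per 1000 counts of the 22 B cell genes there were 79.3 to 97.8 hemoglobin counts in all 18 libraries, a range of 1.23-fold. Per 1000 counts of Ighm, the immunoglobulin M heavy chain, there were 416 to 481, a range of 1.16-fold. Per 1000 counts of the 11 T cell receptor genes there were 270 to 1033, a range of 3.82-fold. Hemoglobin thus stood in a nearly fixed ratio to the B cell genes and in no such ratio to the T cell receptor genes.

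**Figure D5:**
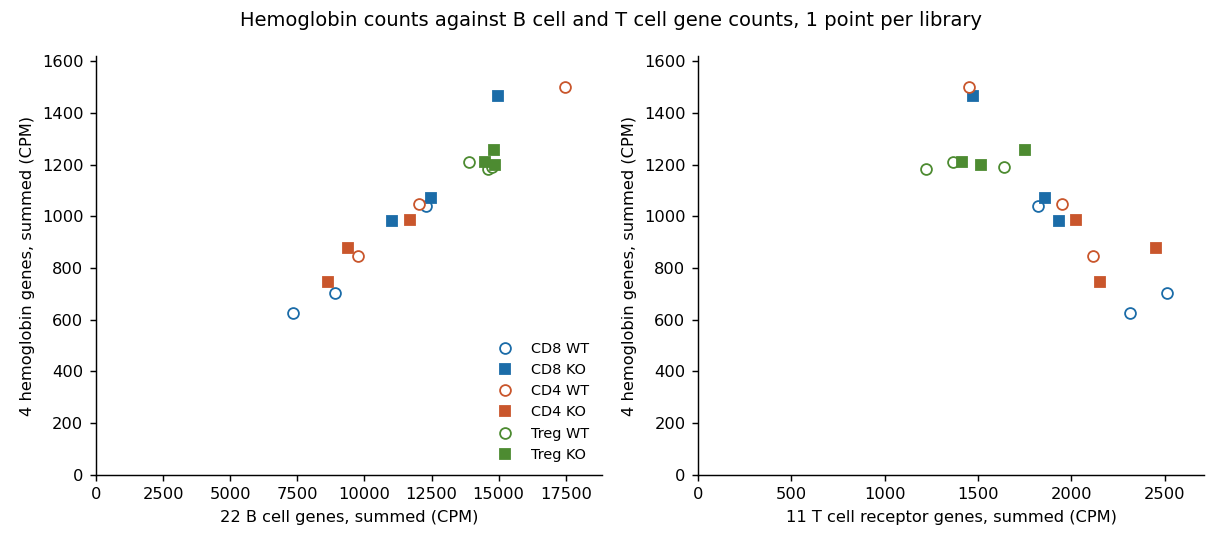
Summed hemoglobin (CPM, y axis) against summed B cell genes (left) and summed T cell receptor genes (right), 1 point per library, axes from 0. On the left the points lie near a line through the origin, at 79.3 to 97.8 hemoglobin counts per 1000 B cell counts, and on the right the ratio spans 270 to 1033 per 1000.

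The B cell list also mostly showed the signs of the globins between genotypes in CD8 and in CD4, and in Treg against CD4. Between genotypes in Treg the list was mixed, with 15 genes higher and 7 lower in KO. Libraries labelled KO were higher in 21 of its 22 genes in CD8 (median 0.44) and lower in all 22 in CD4 (median -0.39), with 0 of 22 passing in either, beside medians of 0 over all genes. For the 4 globins these differences were 0.46 to 0.74 in CD8 and -0.42 to -0.30 in CD4. The T cell receptor list ran the other way, lower in all 11 genes in CD8 (median -0.32) and higher in all 11 in CD4 (median 0.30), with 0 passing. Against CD4, Treg libraries were higher in 11 of 22 B cell genes (33.3% of all genes) and lower in 7 of 11 T cell receptor genes (25.2% of all genes). The part of B cell RNA in the hemoglobin differences was not tested.

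Likeness of pattern was measured as the Pearson correlation of log2 CPM over the 18 libraries with group means removed, among 10311 named genes. The 8 genes most like summed hemoglobin were Ly6d (0.980), Snn (0.978), Igkc (0.975), Ighm (0.974), Siglecg (0.973), Cd24a (0.970), Snx30 (0.967) and Iglc1 (0.965). Of these Igkc, Ighm and Iglc1 encode immunoglobulin chains, and Ly6d, Siglecg and Cd24a are surface proteins of B cells, Cd24a also of erythroid cells. Above a correlation of 0.9 stood 119 genes, among them 18 of the 22 B cell genes. The points share library depth and scaling, and no test was made. Over the 12 CD4 and CD8 libraries alone the 8 values were 0.974 to 0.995.

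Among the members, the globins correlated with one another at 0.823 to 0.958 by this measure. Against summed hemoglobin Slc4a1 stood at 0.39, Car2 at 0.09 and Alas2 at -0.01, and each of these 3 genes had at most 29 counts in a library. Trac, the T cell receptor alpha constant gene, stood at -0.72. The genes most like Alas2 were Atp5g1 (0.852), Arf2 (0.842) and Akirin1 (0.836), and those most like Car2 were Bcor (0.888), Fahd1 (0.839) and Btf3l4 (0.793), none of them from the lists of red cell genes.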

How the data were processed

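RNA was counted by gene in 18 libraries, 3 for each of 6 groups taken from the sample labels. The authors deposited 1 table of whole-number counts of 55487 genes. FastQC, cutadapt 2.10, STAR 2.5.3a, UMI-tools 1.0.0 and featureCounts (Subread 2.0.0) are named per the submitters' processing notes, with the GRCm38 (mm10) build. Not given in the sources used here were their settings, the use of strand and the handling of reads with several alignments. Symbols were matched for 55141 gene IDs, leaving 346 without, and 0 sample columns were left unused.

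Library totals ran from 841892 to 2255950 counts. Shares carry exact (Clopper-Pearson) 95% intervals and the floor is 3 counts, both covering counting error only. Genes were filtered with filterByExpr (minimum count 10), leaving 12693, scaled by TMM and fitted over all 18 libraries with edgeR 4.0.16 (robust glmQLFit, 12 residual degrees of freedom, R 4.3.3). Calls are at a Benjamini-Hochberg adjusted p under 0.05, and an SE is the absolute log2 fold change over the square root of F. The fit was tested on simulated data. All libraries entered the fit, while means and SDs count each near-identical Treg pair once. DESeq2 1.42.0 and limma 3.58.1 served as alternatives, with other scalings, no filter, fewer libraries and each library left out.

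The named genes are all 7 members, up to 4 called and up to 4 most abundant genes of each list, and the genes most like them in pattern. A few rare defining markers were named after their values were seen. The members and lists were chosen with earlier results of these data known. Same-numbered KO and WT libraries were checked for pairing: 1 of 9 pairs correlated above 0.1 (range -0.23 to 0.307), so the numbers were not taken to pair them. Some genes of the lists are not reported here.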

Additional observations from a re-analysis of the deposited data

How the results depend on the processing

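Slc4a1 in Treg kept its call and direction under every alternative run. With 1 library left out it stood at 2.07 to 2.88 against CD4 and 1.59 to 2.13 against CD8. It entered the filtered fits only through Treg libraries, so these values are a description. For single members, 481 of the values under other settings kept direction and call, 14 gained a call, 6 lost one and 5 reversed. With 1 library left out these numbers were 395, 14, 23 and 30.

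Counts of genes called moved most. For CD8 KO against WT (21 genes) they were 35 with RLE scaling, 447 with no filter, 72 with DESeq2, 0 in a fit of only the libraries compared or of the 12 CD4 and CD8 libraries (the latter chosen after seeing the data), 1 with near-identical libraries summed, and 0 to 646 with 1 library left out. For CD4 KO against WT (0) they were 22 with no filter, 1 with DESeq2, 2 with only the libraries compared and 0 to 2 with 1 library left out. Averaged over cell labels (0) they were 2, 1 and 0 to 1 with no filter, DESeq2 and 1 library left out. For the CD8 minus CD4 difference (0) they were 1 with library totals alone, 602 with no filter, 130 with DESeq2 and 0 to 859 with 1 library left out. With no filter 11495 genes were called in Treg against CD4 (7417) and 11839 against CD8 (7631). The cause was not tested, except that no filter adds genes to the test.

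Members called in CD8 (0) were 1 with no filter, 2 with DESeq2 and 0 to 3 with 1 library left out. In the CD8 minus CD4 difference (0) they were 3, 4 and 0 to 4. In Treg against CD4 (2) they were 1 with library totals alone, 1 with near-identical libraries summed and 1 to 3 with 1 library left out, and against CD8 (4) they were 2 with library totals alone and 2 to 4 with 1 library left out. With the T cell receptor list as denominator the log2 ratio of summed hemoglobin was -0.73 in CD4 (-0.38) and -0.10 in Treg (0.04). With 1 library left out it ran from -0.55 to -0.12 in CD4, from 0.38 to 0.82 in CD8 and from 0.013 to 0.053 in Treg.

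Reversals were of uncalled members. Hba-a2 in Treg against CD4 was -0.022 with library totals alone and -0.083 with no filter, and -0.046 with no filter against CD8. Hba-a1 in Treg against CD4 was -0.002225 with no filter, and Hbb-bs in Treg KO against WT was 0.014 with the beta globins summed. With 1 library left out, CD8 against CD4 ran from -0.16 to 0.084 in Hbb-bs, -0.15 to 0.075 in Hbb-bt, -0.17 to 0.055 in Hba-a1 and -0.19 to 0.025 in Hba-a2. KO against WT ran from -1.09 to 0.46 in Slc4a1 and -0.56 to 0.13 in Car2 in CD4, and from -0.49 to 0.60 in Slc4a1, -0.25 to 0.41 in Car2 and -0.044 to 0.11 in Hba-a2 in Treg. The CD8 minus CD4 difference of Slc4a1 ran from -0.19 to 1.37, Alas2 in Treg against CD8 from -0.22 to 0.036, and Hba-a2 in Treg against CD4 from -0.016 to 0.14.

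With the replicate number as a block, 12 genes were called in CD8 KO against WT, and no member's call changed. The numbers share only a label.

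Depth limits the rare members most: Slc4a1 had 1 to 13 counts in a library, Alas2 4 to 29 and Car2 5 to 26, so differences between genotypes were not detectable at this depth unless large.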
